A study of Mus musculus with 4 samples.

Results

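Of the small leucine-rich proteoglycan genes of the mouse, 7 are described here. Dcn (decorin), Bgn (biglycan), Aspn (asporin), Lum (lumican), Fmod (fibromodulin), Prelp and Ogn (osteoglycin) were taken by symbol from the 32285 genes of the Visium count tables, and all 7 were found. They gave 33111, 43536, 4386, 14957, 550, 3345 and 6376 UMIs in that order (unique molecular identifiers, 1 for each captured mRNA molecule) over the spots kept. Visium collects mRNA on a slide of barcoded spots, each under a small group of cells. The samples were 4 fresh frozen heart sections, 1 from 1 adult ICR mouse (an outbred stock without a transgene) at each of days 1, 4, 7 and 14 after myocardial infarction (MI) made by tying off the left anterior descending coronary artery for good. All 4 hearts were ligated, and no sham or uninjured section was analysed here, so each day is compared with another day after MI and each region with another region of the same section. The label of the first section gives day 1, as do the study's methods and the legend of its Visium figure. A sentence of the study's results names a later day for it, and the label is used here. With 1 mouse a day, day and mouse cannot be told apart, and no p-value between days was computed.

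Small leucine-rich proteoglycans are secreted matrix proteins whose core is a curved stack of leucine-rich repeats. They lie on collagen fibrils, where they limit the sideways fusion of fibrils and set their diameter and spacing, and they bind growth factors such as transforming growth factor beta. In the heart, fibroblasts are their main source, and several of them are known to accumulate in the scar after infarction. Decorin and biglycan carry chondroitin or dermatan sulfate chains, lumican and fibromodulin can carry keratan sulfate, and asporin carries no such chain. Biglycan released from matrix is also known as a ligand of Toll-like receptors on macrophages.

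Blood-rich spots, those where hemoglobin genes took over 1% of UMIs, were left out, leaving 7503 of 9102 spots, from 1679 to 2086 a section, with 9292678 to 15713779 UMIs a section. Within each section the remaining spots were ranked on the share of their UMIs from Myh6 and Myl2, which encode the myosin heavy chain and light chain of the ventricular cardiomyocyte, and divided into 4 bins of equal size. Bin 1, called the muscle-poor bin, holds the spots with the least cardiomyocyte transcript, and bin 4, the muscle-rich bin, those with the most. Levels are UMIs per 1000000 UMIs of a bin (CPM). The median share in the muscle-poor bin was 0.755%, 0.154%, 0.200% and 1.01% on days 1, 4, 7 and 14, against 2.53% to 2.78% in the muscle-rich bins. On day 14 the muscle-poor bin reached up to a share of 1.94% and therefore held much spared muscle, so its values on that day are given also for the muscle-poorest decile, the first of 10 equal groups of the same ranking. All 10 other cardiomyocyte genes listed had enough UMIs to be tested, as in the labelled tissue, heart, and spots with 10 or more UMIs of fast skeletal muscle genes were found on day 7 alone, 115 of its 118 in the muscle-poor bin. Of 3178 distinct spot barcodes, 1332 occurred in all 4 sections, since the barcodes are fixed slide positions and not cells. A spot mixes cells, so more cells of a type and more RNA per cell cannot be told apart in any value here.

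Bgn, Aspn and Lum were higher in the muscle-poor bin than in the muscle-rich bin over the 4 sections, and Dcn, Prelp and Ogn did not pass the test. Aspn and Lum were higher in 3 of the 4 sections, with ratios of 0.980 and 0.988 on day 1. Bgn led with a log2 fold change of 2.89 ± 0.46 (SE, n = 4 sections, edgeR quasi-likelihood test, adjusted p = 0.00569). Of the 6 genes with the 1000 UMIs needed for the test, 3 were higher and 0 lower, beside 23.8% higher and 22.2% lower among all 4769 genes tested. The median log2 fold change was 1.11 over the 6 genes and 0.06 over all genes tested. Fmod, under the minimum, is described by its UMIs.

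The promoter of Bgn is shown because Bgn had the steepest gradient of the 6 members tested and because, among the 5 of 7 genes with an entry in the RefSeq promoter table (GRCm38.p6), it alone held GC boxes. The window, from 250 bases before the RefSeq start of the gene to 50 after it, is chrX:73483351-73483650 on the plus strand. Capitals mark the GC box, GGGCGG or its complement, at 3 places, the last 2 of which overlap by 2 bases. The same letters occurred in 35.7% of 32851 promoters of this length.
Bgn: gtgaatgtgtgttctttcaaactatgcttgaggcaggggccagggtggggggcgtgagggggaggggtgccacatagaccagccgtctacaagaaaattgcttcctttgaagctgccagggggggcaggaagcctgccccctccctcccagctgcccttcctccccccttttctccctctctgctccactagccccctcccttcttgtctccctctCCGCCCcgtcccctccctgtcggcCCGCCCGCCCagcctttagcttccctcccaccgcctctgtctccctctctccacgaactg

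Bgn (chromosome X: 73483602 to 73495933, plus strand) encodes the proteoglycan with paired chondroitin or dermatan sulfate chains. In the muscle-poor bin it had 751, 4658, 4819 and 1339 CPM on days 1, 4, 7 and 14. In the muscle-rich bin it had 200, 216, 295 and 202. The groups did not overlap, but the share of all genes of which this was true was not counted. Bgn was the only member higher in the muscle-poor bin beyond counting error in all 4 sections. The folds were 3.75 (exact 95% interval 3.42 to 4.12), 21.6, 16.3 and 6.62 in the order of days. This was not particular to Bgn, since Col1a1 was higher in all 4 sections too, by 4.19-fold to 40.0-fold. The share of all genes that did so was not counted. Between the muscle-poorest and the muscle-richest decile the fold of day 14 was 24.7 (21.9 to 28.0), beside 23.8 (21.2 to 26.8) on day 4. The muscle-poor bin held 42.0% to 64.0% of a section's Bgn UMIs and 13.3% to 22.9% of all its UMIs. These and the following intervals cover counting error only.

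Aspn (chromosome 13: 49544443 to 49567565, plus strand) encodes a relative of decorin that binds collagen and carries a stretch of aspartate residues. It had 13.2, 409, 630 and 117 CPM in the muscle-poor bin on days 1, 4, 7 and 14, and 13.4, 31.6, 39.2 and 20.0 in the muscle-rich bin. On day 1 both bins stood at the same low level, 36 and 39 UMIs, and from day 4 the muscle-poor bin was above the muscle-rich bin by 12.9-fold, 16.1-fold and 5.83-fold. The edgeR log2 fold change over the 4 sections was 2.33 ± 0.62 (SE, adjusted p = 0.0210).

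Its promoter is shown beside that of Ogn because the genes lie close together on chromosome 13 and followed the gradient differently. Aspn is given at chr13:49544193-49544492 and Ogn at chr13:49607765-49608064, both on the plus strand. Capitals mark the TATA box letters TATAAA, the CCAAT box letters CCAAT and, in Ogn, the M-CAT core CATTCC, each on either strand. Aspn had 2 TATA matches and 1 CCAAT match, and Ogn had 2 TATA matches that overlap on opposite strands and 1 CATTCC match. The TATA matches lie from 229 to 178 bases before the start. The letters occurred in 13.6% (TATAAA), 37.4% (CCAAT) and 14.7% (CATTCC) of all promoters. The AP-1 letters TGACTCA, searched as well, were in none of the 5 windows and in 5.20% of all promoters.
Aspn: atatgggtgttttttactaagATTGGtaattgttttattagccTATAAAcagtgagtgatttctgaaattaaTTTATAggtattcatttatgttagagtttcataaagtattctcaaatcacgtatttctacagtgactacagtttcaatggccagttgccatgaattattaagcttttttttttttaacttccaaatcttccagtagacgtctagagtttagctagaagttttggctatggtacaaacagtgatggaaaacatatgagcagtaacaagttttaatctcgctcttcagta
Ogn: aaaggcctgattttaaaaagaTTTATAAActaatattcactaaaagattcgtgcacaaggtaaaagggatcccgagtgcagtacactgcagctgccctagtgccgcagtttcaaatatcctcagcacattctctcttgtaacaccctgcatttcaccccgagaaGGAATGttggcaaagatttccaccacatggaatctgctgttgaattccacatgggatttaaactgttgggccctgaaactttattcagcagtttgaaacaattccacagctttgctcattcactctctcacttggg

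Lum (chromosome 10: 97565128 to 97572703, plus strand) encodes lumican, a keratan sulfate proteoglycan of collagen fibrils. Its level in the muscle-poor bin was 146, 836, 1500 and 617 CPM on days 1, 4, 7 and 14, and in the muscle-rich bin it was 148, 134, 167 and 154. The bins were alike on day 1 (ratio 0.988, 95% interval 0.860 to 1.13) and stood apart on days 4, 7 and 14, by 6.23-fold, 8.96-fold and 4.00-fold. The edgeR log2 fold change was 1.60 ± 0.50 (SE, adjusted p = 0.0361).

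Fmod (chromosome 1: 134037254 to 134048277, plus strand) encodes fibromodulin, which binds collagen type I and takes part in fibril assembly and crosslinking. It was close to undetected on day 1, with 1 UMI in the muscle-poor bin and 0 in the muscle-rich bin, where 3 UMIs, taken as the limit that a count of 0 allows, would be 1.03 CPM. In the muscle-poor bin it then had 76, 232 and 82 UMIs on days 4, 7 and 14, or 27.6, 158 and 39.3 CPM, against 3, 10 and 3 UMIs in the muscle-rich bin. The ratio on these days was 34.9 (95% interval 11.5 to 173), 41.1 (21.9 to 86.8) and 55.1 (18.2 to 273). With the gene minimum lowered to 10 UMIs, its edgeR log2 fold change was 4.66 ± 0.32 (SE, adjusted p = 2.54e-06), where 18.0% of 15062 genes were higher.

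Dcn (chromosome 10: 97479609 to 97518143, plus strand), the gene of decorin, binder of collagen and of transforming growth factor beta, turned its gradient with the day. It had 286, 1080, 1800 and 1269 CPM in the muscle-poor bin on days 1, 4, 7 and 14, and 533, 523, 491 and 469 in the muscle-rich bin. On day 1 the muscle-poor bin was below the muscle-rich bin, at a ratio of 0.538 (95% interval 0.493 to 0.587), and on days 4, 7 and 14 it was above it, at 2.06, 3.67 and 2.71. The edgeR log2 fold change was 0.51 ± 0.48 (SE, adjusted p = 0.401).

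Prelp (chromosome 1: 133910304 to 133921414, minus strand) encodes a proline- and arginine-rich member that links matrix to basement membrane, and Ogn (chromosome 13: 49608046 to 49624501, plus strand) encodes osteoglycin, also called mimecan. Prelp had 32.5, 96.8, 213 and 159 CPM in the muscle-poor bin by day and 54.0, 41.9, 72.2 and 43.1 in the muscle-rich bin. Ogn had 38.4, 278, 534 and 143 CPM in the muscle-poor bin and 91.8, 104, 91.8 and 89.9 in the muscle-rich bin. Both were lower in the muscle-poor bin on day 1, at ratios of 0.602 (95% interval 0.459 to 0.786) for Prelp and 0.418 (0.330 to 0.525) for Ogn, and higher on the other days, up to 3.69-fold for Prelp on day 14 and 5.82-fold for Ogn on day 7. Their edgeR log2 fold changes were 0.63 ± 0.43 (adjusted p = 0.253) and 0.49 ± 0.55 (adjusted p = 0.479).

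On day 14 the gradients were steeper between deciles than between bins, by over 1.5 times for all 7 genes. For Fmod the 2 intervals overlap (30.4 to 990 and 18.2 to 273). Col1a1 steepened too, from 20.5 to 97.9. The share of all genes that did so was not counted, so nothing particular to the members is read from it. The level in the muscle-poorest decile over that in the muscle-richest decile was 3.95, 23.8, 15.9 and 24.7 for Bgn on days 1, 4, 7 and 14. For Lum it was 0.915, 6.81, 9.58 and 12.9, and for Aspn 0.787, 10.6, 12.8 and 15.5. The intervals of day 14 overlap those of day 4 for Bgn and of day 7 for Lum and Aspn. Dcn, at 0.462, 2.03, 3.65 and 7.88, and Prelp, at 0.431, 1.91, 2.31 and 9.73, were steepest on day 14 beyond counting error. Fmod reached 116 (95% interval 30.4 to 990, from 2 UMIs in the muscle-richest decile) on day 14. Ogn, at 0.309, 2.18, 5.11 and 2.87, was steepest on day 7. Spots with few UMIs and skeletal muscle spots were not left out of the deciles.

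**Figure D1:**
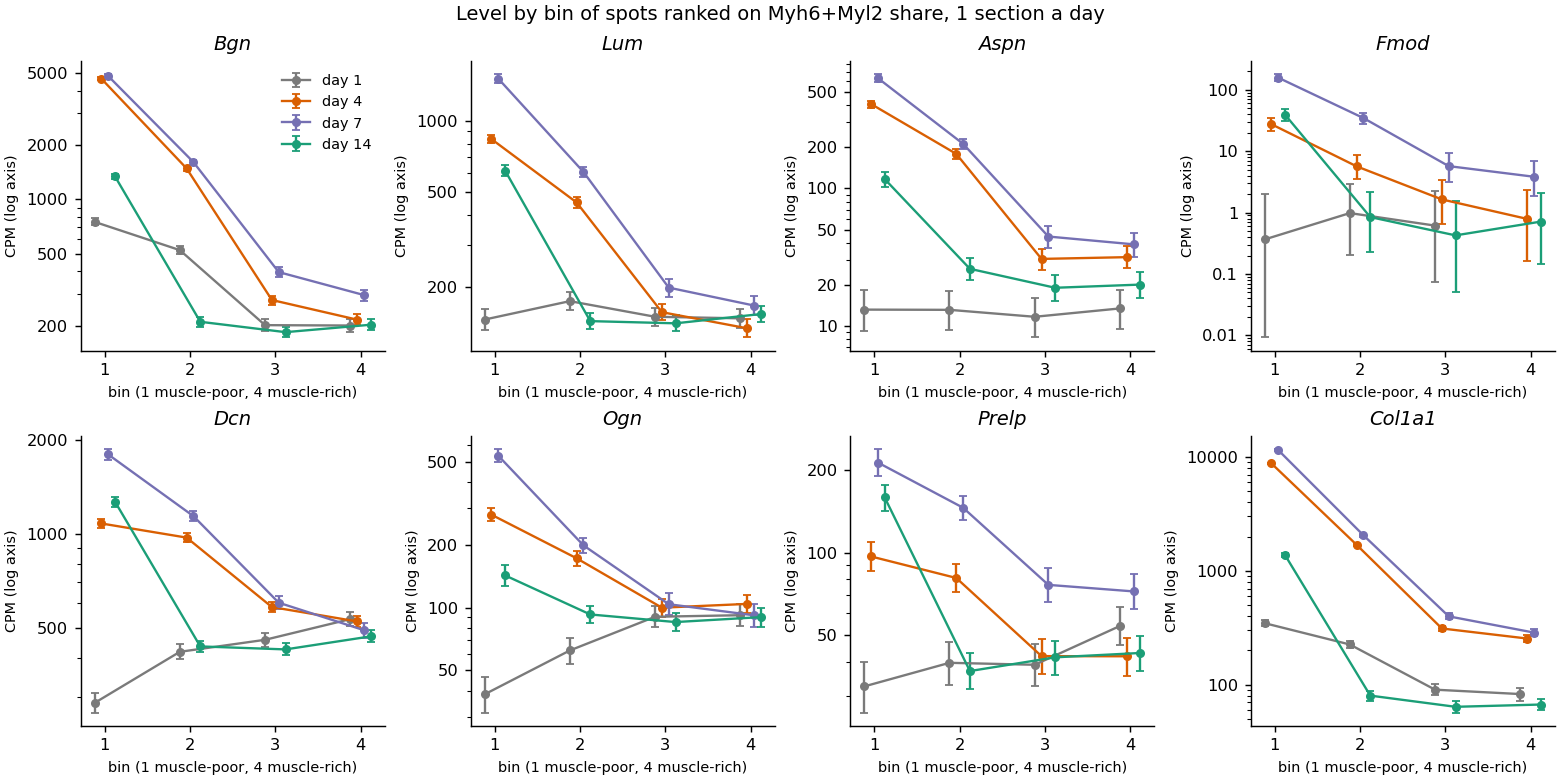
Each panel plots a gene's CPM on a log axis against the bin of spots (1 has the least Myh6 and Myl2), with 1 line a day and exact Poisson 95% intervals, and no point where there were 0 UMIs. Bgn descended from bin 1 to bin 3 on every day, whereas the day 1 lines of Dcn and Ogn ascended, from 286 to 533 and from 38.4 to 91.8 CPM.

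The gradient was not confined to the muscle-poor bin on days 4 and 7. Bgn had 1483 and 1608 CPM in bin 2 on these days, Dcn had 973 and 1140 and Lum had 453 and 608, all above bin 4. On day 14 bin 2 was at the level of the muscle-rich bin, at 210 for Bgn, 435 for Dcn and 144 for Lum. Over the 4 sections no member passed edgeR's test in bin 2 against bin 4 (0 of 6, with 0.398% of all genes higher and 0.0629% lower) or in bin 3 (0 of 6, with 0.294% and 0.105%). In bin 2 the log2 fold change was 1.58 ± 0.47 for Bgn (adjusted p = 0.0977) and 1.42 ± 0.49 for Aspn (adjusted p = 0.125). In bin 3 it was 0.23 ± 0.09 for Bgn (adjusted p = 0.531) and 0.15 ± 0.06 for Lum (adjusted p = 0.378). These genes are named because their unadjusted p was under 0.05. The share of all genes under that threshold is not given here, so nothing is read from it.

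**Figure D2:**
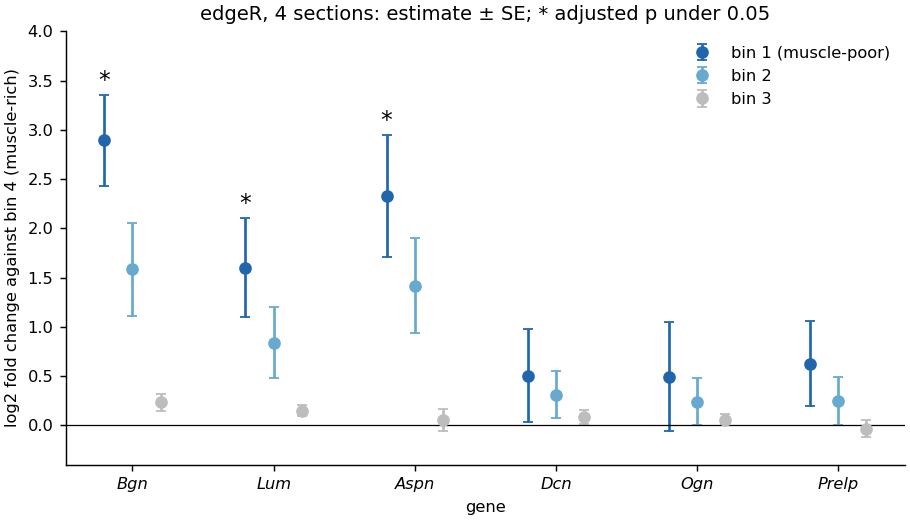
Points are edgeR log2 fold changes of bins 1, 2 and 3 against bin 4 with their standard errors over 4 sections, and a star marks an adjusted p under 0.05. Stars stand over Bgn, Lum and Aspn in the muscle-poor bin, and bin 3 lies between -0.03 and 0.23 for the 6 genes.

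Leaving out the day 4, day 7 or day 14 section, which left 2 residual degrees of freedom, ended the calls of Lum and Aspn, and Bgn alone was called. The estimate of Lum was then 1.45, 1.20 and 1.53 (adjusted p = 0.133, 0.124 and 0.104) and that of Aspn 2.03, 1.85 and 2.34 (adjusted p = 0.116, 0.0666 and 0.0656), within ranges of adjusted p over all alternatives of 0.000896 to 0.133 and 0.00129 to 0.116. Without day 1 Prelp was called too (1.13, adjusted p = 0.0394, range 0.0394 to 0.649), and without day 7 the estimate of Ogn became -0.060. With total UMIs in place of TMM factors the median of all genes moved from 0.06 to 0.45 and the split of calls from 1136 higher and 1057 lower to 2015 and 655, with the members called unchanged in number (3 higher).

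Markers of several other cell types moved with these gradients, and those of others did not. The summed level of the 8 fibroblast markers listed was 1175 CPM in the muscle-poor bin and 2524 in the muscle-rich bin on day 1. Dcn, Prelp and Ogn lay on that side too. On days 4, 7 and 14 the sum was 11505, 11801 and 3969 against 2414, 2562 and 1808. Most of it in the muscle-poor bin of days 4 and 7 was Col1a2, at 10715.9 and 10338.5 CPM. On day 1 Col1a2 lay on the other side, at 521 against 130 CPM. Without Col1a2 the sum was lower in the muscle-poor bin on days 1, 4 and 7, so its turn on days 4 and 7 was that of Col1a2. Of the 6 fibroblast markers tested 2 were higher, Col1a2 (3.87, adjusted p = 0.00651) and Pdgfra, a growth factor receptor (1.11, adjusted p = 0.00501), 1 was lower, Gsn, also made by other cells (-2.13, adjusted p = 0.0167), and 3 were not called. All 6 activated fibroblast markers tested and all 7 macrophage markers tested were higher, and the summed macrophage level ran from 1179 to 6726 in the muscle-poor bins and from 348 to 524 CPM in the muscle-rich bins. The summed level of 6 neutrophil markers was 71.1 to 403 CPM in the muscle-poor bins, the highest on day 1, and 4.04 to 17.2 in the muscle-rich bins. That of 4 mesothelium markers was 7.67 to 231 against 3.69 to 15.0, and that of 5 atrium markers 3.29 to 333 against 3.44 to 5.76, both with the highest value in the muscle-poor bin of day 7. Of these 15 genes 1, a neutrophil marker, had the UMIs for the test and was higher. Of 8 skeletal muscle genes tested 6 were higher. All 3 late scar fibroblast markers tested were higher. Of 7 endothelial markers tested 0 were higher and 2 were lower. Of 3 smooth muscle markers tested 2 were higher and 1 was lower, and the 1 adipocyte marker tested was lower. Among all genes tested 23.8% were higher and 22.2% lower. A marker could pass the UMI minimum through the bin where it was high. Leaving out the skeletal muscle spots kept the same calls of members, at log2 fold changes of 2.94 for Bgn, 2.40 for Aspn and 1.65 for Lum, and so did leaving out mesothelium spots, at 2.91, 2.36 and 1.61. The part of the other markers in the members' gradients was not tested. Median UMIs per spot in the muscle-poor bin were 6389, 6524.5, 2826 and 2329.5 by day, against 5971, 9221, 5515 and 8278 in the muscle-rich bin.

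Between days, all 7 members were at least 2-fold higher in the muscle-poor bin on day 4 than on day 1, where 10.7% of genes were. The fold was 3.77 for Dcn, 6.20 for Bgn, 5.72 for Lum, 7.26 for Ogn, 2.98 for Prelp and 31.1 for Aspn (95% interval 22.3 to 44.6), and Fmod went from 1 UMI to 76. The day 1 bin held more cardiomyocyte transcript, with 37960.5 CPM of the 10 other cardiomyocyte genes against 13247.3 on day 4. These folds therefore compare unlike mixtures of tissue. In the muscle-poorest decile all 7 members were at least 2-fold higher too (14.5% of genes). Over the whole section 5 of 7 were (3.84% of genes), and Dcn (1.78-fold) and Prelp were not. From day 4 to day 7 the members parted in the muscle-poor bin. Bgn changed least (1.03-fold, 1.00 to 1.07), and Aspn, Dcn, Lum and Ogn gained 1.54-fold to 1.92-fold. Prelp (2.20-fold) and Fmod (5.73-fold) passed 2-fold, where 3.77% of genes did. Without the skeletal muscle spots of day 7 the change of Bgn was 1.24-fold and 5 of 7 members passed 2-fold, Dcn (2.12-fold), Lum (2.15-fold) and Ogn (2.32-fold) among them, where 2.48% of genes did. In the muscle-rich bin the largest change from day 1 to day 4 with UMIs on both days was that of Aspn (2.36-fold, 1.63 to 3.47, where 0.986% of genes rose by 2-fold), and the other 5 lay between 0.775 and 1.13. Dcn in the muscle-rich bin had a narrow range over the 4 mice, 469 to 533 CPM.

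From day 7 to day 14 the muscle-poor bin showed a fall of more than 2-fold in 5 of 7 members (Bgn, Lum, Fmod, Ogn and Aspn), where 20.4% of genes fell so far. In the muscle-poorest decile 0 of 7 fell by 2-fold (9.46% of genes) and 2 of 7, Dcn and Prelp, rose by 2-fold (7.51% of genes). Dcn there had 249, 1125, 1561 and 4096 CPM on days 1, 4, 7 and 14, the last from 1251 UMIs, and Lum had 133, 955, 1382 and 2282. Prelp had 29.1, 79.3, 176 and 409. In CPM these 3 genes thus had their highest level on day 14 in that decile. All UMIs of the decile were 1047312, 703550 and 305447 on days 4, 7 and 14. Dcn gave 1178, 1098 and 1251 UMIs there and Lum 1000, 972 and 697. Spots with few UMIs and skeletal muscle spots were not left out, and the part of depth in these levels was not tested. Bgn was level from day 4 on, at 5061, 4389 and 5025, and Fmod had 156 on day 7 and 151 on day 14. Aspn (534 and 360) and Ogn (436 and 291) were lower on day 14 than on day 7 in the muscle-poorest decile too, by 0.674-fold (0.540 to 0.835) and 0.668-fold (0.521 to 0.848). The muscle-poorest decile of day 14 held 1.94% of that section's UMIs, but 14.4% of its Dcn UMIs, 21.3% of its Lum UMIs, 27.9% of its Bgn UMIs and 50.5% of its Fmod UMIs.

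**Figure D3:**
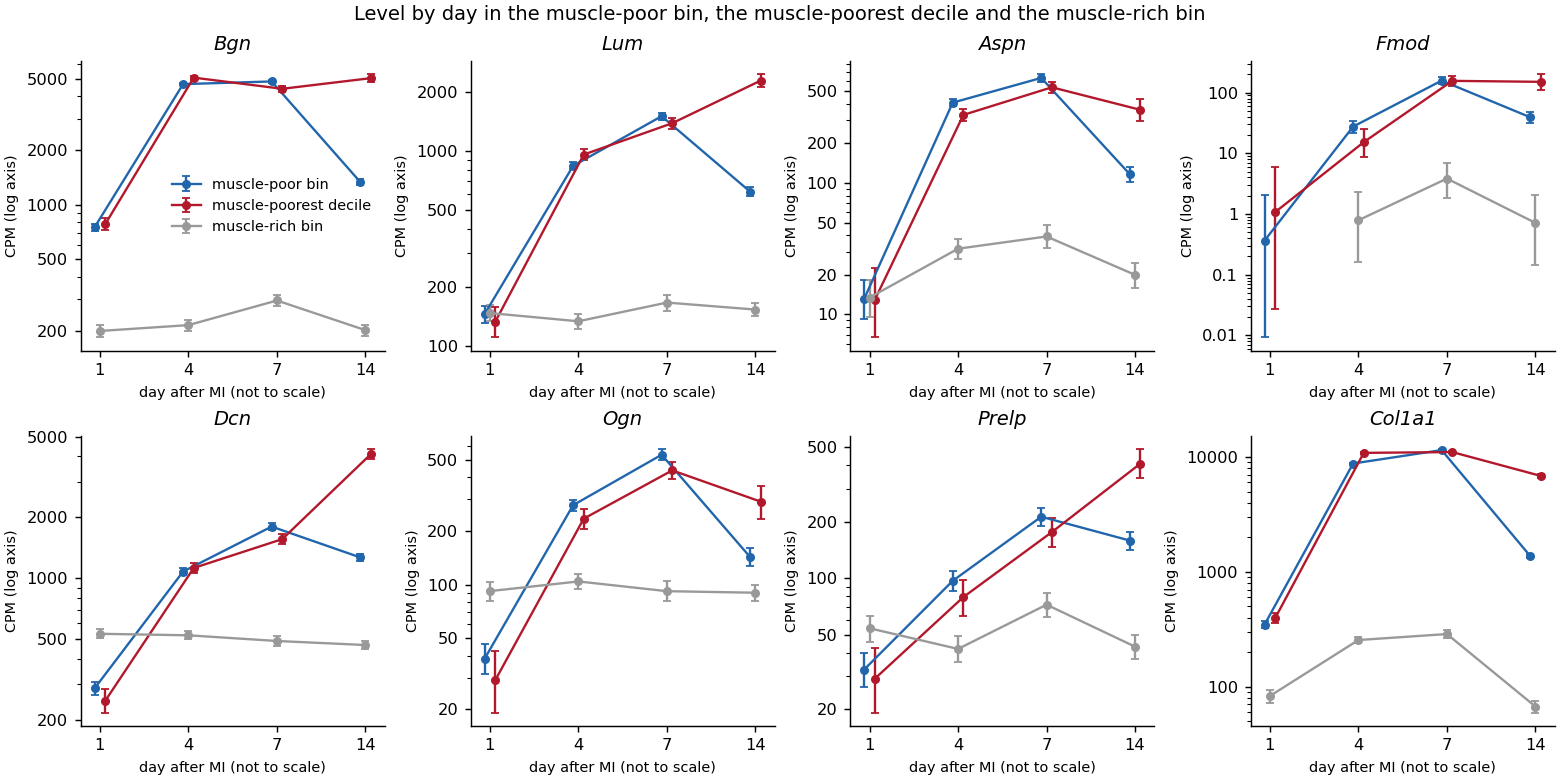
Each panel plots CPM on a log axis by day in the muscle-poor bin, the muscle-poorest decile and the muscle-rich bin, with exact Poisson 95% intervals and 1 section a day. The lines of bin 1 and decile lie nearer to each other up to day 7 than on day 14. Dcn is at 1800 in the bin and 1561 in the decile on day 7, and at 1269 and 4096 on day 14.

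Set against Col1a1, the gene of the main collagen chain of the scar, the order of the days was turned. For every 100 Col1a1 UMIs in the muscle-poor bin there were 82.4, 12.3, 15.7 and 92.3 Dcn UMIs on days 1, 4, 7 and 14, and for Bgn 216, 53.1, 42.0 and 97.4. Lum had 42.1, 9.53, 13.1 and 44.9, Ogn 11.0, 3.17, 4.65 and 10.4, and Prelp 9.36, 1.10, 1.85 and 11.6. These 5 genes were lowest per Col1a1 on day 4 or day 7, while Col1a1 itself had 347, 8772, 11485 and 1375 CPM. Aspn had 3.79, 4.66, 5.48 and 8.48 and Fmod 0.105, 0.314, 1.37 and 2.86. Between day 1 and day 4, 5 members fell by over 2-fold per Col1a1 UMI, but so did 99.4% of genes, and from day 7 to day 14 6 members rose by 2-fold or more, as did 98.5% of genes, so that the dip and return in this bin are shared by nearly all genes divided by Col1a1. The ratio on day 4 to that on day 1 was 1.23 for Aspn (95% interval 0.877 to 1.73) and 2.99 for Fmod (0.415 to 21.5, with 1 UMI on day 1), where 0.042% of genes rose by 2-fold or more, and neither is told apart from 1 by its interval.

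In the muscle-poorest decile the return was smaller. On day 14 there were 59.9 Dcn, 73.4 Bgn, 33.3 Lum, 4.26 Ogn and 5.98 Prelp UMIs for every 100 Col1a1 UMIs there, and 3 of 7 members, Dcn, Lum and Prelp, were 2-fold or more higher than on day 7, beside 40.5% of genes. Bgn had 1.85 times its day 7 value, Aspn 1.09 and Ogn 1.08. The ratio of day 4 to day 1 in the decile was 0.930 (0.518 to 1.67) for Aspn and 0.518 (0.0685 to 3.91) for Fmod. With Col3a1 in place of Col1a1 in the muscle-poor bin, 2 of 7 members, Dcn and Prelp, were 2-fold or more higher on day 14 than on day 7, where 74.1% of genes were.

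**Figure D4:**
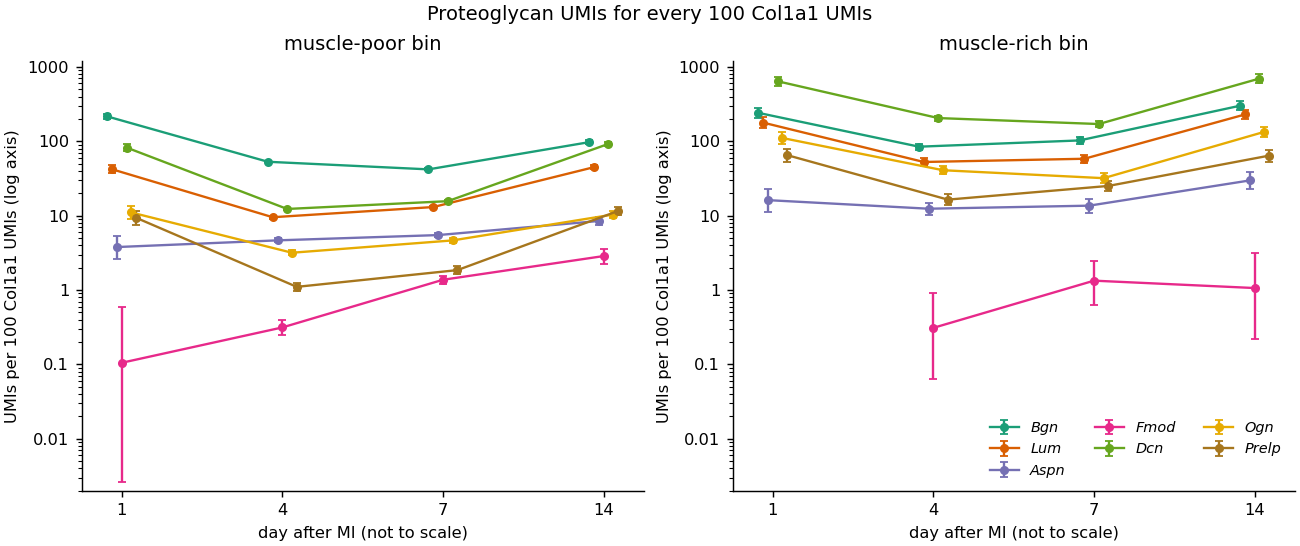
Member UMIs for every 100 Col1a1 UMIs are plotted on a log axis by day in the muscle-poor (left) and muscle-rich bin (right), with 95% intervals for counting error and no point at 0 UMIs. In the left panel Dcn, Bgn, Lum, Ogn and Prelp form a trough on days 4 and 7, whereas Fmod climbs from 0.105 to 2.86.

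Between bins, Dcn, Lum, Ogn, Prelp and Aspn were lower per Col1a1 UMI in the muscle-poor bin than in the muscle-rich bin in edgeR (5 of 6 lower and 0 higher, beside 96.0% of 4768 genes lower and 0.105% higher). The log2 fold changes were -3.37 for Ogn (adjusted p = 0.000799), -3.35 for Dcn (adjusted p = 0.00210), -3.23 for Prelp (adjusted p = 0.000752), -2.27 for Lum (adjusted p = 0.0199) and -1.65 for Aspn (adjusted p = 0.0482), and -0.94 for Bgn (adjusted p = 0.335). Their median of -2.75 lay above that of all genes, -3.83, and the share called is the background, so the calls say nothing particular about the proteoglycans. Without the section as a block no gene was called per Col1a1 UMI in edgeR (0 of 4768, with 2266 lower at an unadjusted p under 0.05). In the muscle-poor bin Bgn kept 0.895 of its ratio to Col1a1 in the muscle-rich bin on day 1 and 0.627, 0.408 and 0.323 of it later. For Fmod this value was 1.01 (95% interval 0.319 to 3.21), 1.03 (0.543 to 1.94) and 2.69 (0.845 to 8.57) on days 4, 7 and 14, on 3, 10 and 3 UMIs in the muscle-rich bin, and 0.254 (0.0582 to 1.11) between deciles on day 4. These intervals include 1 and are too wide to tell Fmod from Col1a1.

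Of the 7 genes 6 lie in pairs of nearby genes on GRCm38. Dcn and Lum are 46984 bases apart on chromosome 10 and Prelp and Fmod 115839 bases apart on opposite strands of chromosome 1, with 0 protein-coding genes between them, and Ogn and Aspn are 40480 bases apart on chromosome 13, with Omd and a part of Cenpp between them. In each pair the same partner gained in the muscle-poor bin, which restates the gradients given above for the single genes. The ratio of Dcn to Lum UMIs was 1.96, 1.29, 1.20 and 2.06 in the muscle-poor bin on days 1, 4, 7 and 14 and 3.60, 3.90, 2.93 and 3.04 in the muscle-rich bin, lower in the muscle-poor bin beyond counting error in 4 of 4 sections. Ogn to Aspn was 2.92, 0.681, 0.848 and 1.22 in the muscle-poor bin and 6.85, 3.29, 2.34 and 4.50 in the muscle-rich bin, again lower in 4 of 4. Prelp to Fmod was 3.51, 1.35 and 4.04 on days 4, 7 and 14 in the muscle-poor bin and 53.0, 18.8 and 60.3 in the muscle-rich bin, and on day 1 Fmod was too rare to tell. Since transcripts are captured with unequal yield, only the difference of a ratio between bins is read here. The share of other gene pairs with such a difference was not counted, so nothing particular to nearby genes is read from it. A pair chosen after its values were seen, Bgn to Dcn, had a ratio 6.97, 10.5, 4.45 and 2.45 times as high in the muscle-poor bin as in the muscle-rich bin on days 1, 4, 7 and 14.

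**Figure D5:**
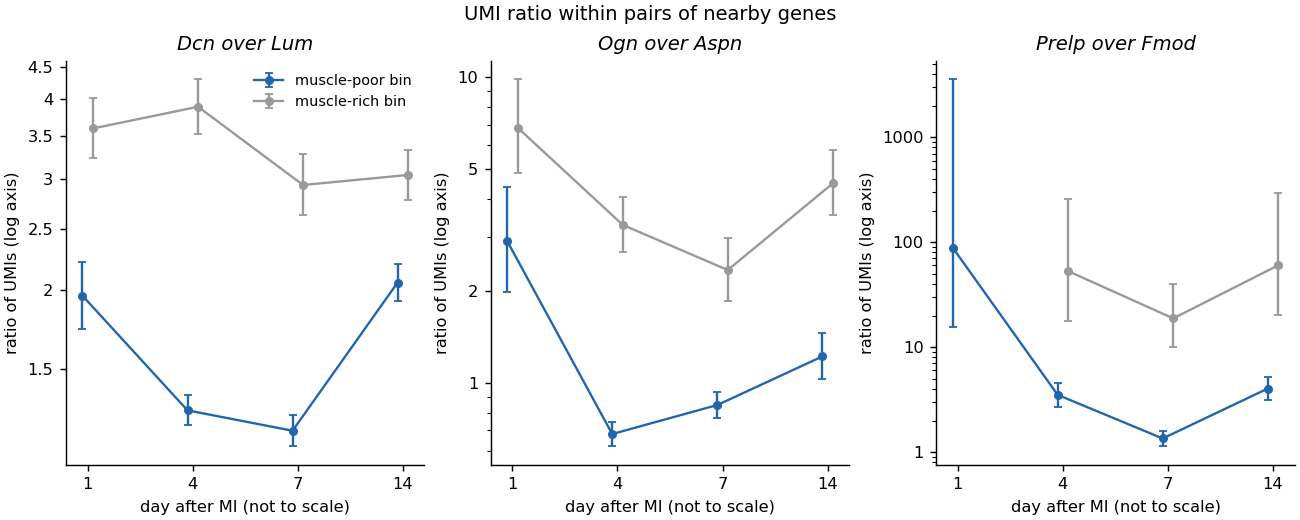
The UMI ratio within each pair of nearby genes is plotted on a log axis by day for the muscle-poor and the muscle-rich bin, with exact 95% intervals and no point where the divisor had 0 UMIs. The muscle-poor line lies below the muscle-rich line on every day plotted in both, at 0.681 against 3.29 for Ogn over Aspn on day 4.

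Over the 16 sums of 4 bins in 4 sections, which share libraries and ranking, each member's profile of log2(CPM + 1) was compared with every gene tested, as a description. Nearest to Bgn were Fstl1 (r = 0.996), Col5a2 (r = 0.995) and Sparc (r = 0.994), all genes of secreted matrix proteins, and its r with Col1a1 was 0.967. Nearest to Dcn were Fbln1 (r = 0.993), Mmp2 (r = 0.977) and Fbln5 (r = 0.971), a fibulin, a gelatinase and another fibulin. Lum was nearest to Timp2, Mxra8 and Ltbp3 (r = 0.987 to 0.989), Aspn to Apoe, Fndc1 and Pdgfrl (r = 0.977 to 0.980), Prelp to Mmp2, Nbl1 and Eln (r = 0.954 to 0.961), and Fmod to Nbl1, Mdk and Ptn (r = 0.973 to 0.981). Ogn was nearest to Ecm2 (r = 0.963), which lies beside Aspn, Omd and Ogn on chromosome 13, then to Pltp (r = 0.959) and Itm2a (r = 0.948). Among the members the lowest r was that of Bgn and Ogn (r = 0.742) and the highest that of Fmod and Prelp (r = 0.957), which with Fmod and Lum (r = 0.957) stood just above Lum and Aspn (r = 0.950). Fmod was not among the genes tested, so it was not ranked as a neighbour of other members. Its r with Prelp (0.957) was above that of Nbl1 with Prelp (0.956). The r values of Fmod rest in part on counts near 0. It had 1, 3, 2 and 0 UMIs in bins 1 to 4 of day 1, and 4, 2 and 3 in bins 2 to 4 of day 14.

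Of 10 other genes of the family, Ecm2 alone had the UMIs for the test and was not called (log2 fold change 0.70 ± 0.50, adjusted p = 0.271). Kera and Optc, known from the eye, had 0 UMIs in the 51309053 UMIs of the spots kept, and Epyc (14), Chad (17), Omd (62) and Podn (219) had few. Of the 14 Epyc UMIs all lay in the muscle-poor bins of days 4, 7 and 14. Of the 17 of Chad, 0, 5 and 10 lay in the muscle-poor bins of these days. Chad encodes a cartilage protein and is also among the late scar fibroblast markers listed.

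The genes that build, cut and bind these proteoglycans were read in the same edgeR test of muscle-poor bin against muscle-rich bin. Of all genes tested there, 23.8% were higher and 22.2% lower. A gene could pass the UMI minimum through the bin where it was high, so the counts below describe the genes tested and not the lists. Of 9 fibrillar collagen genes 6 could be tested and all 6 were higher, Col1a1 by 3.89, Col1a2 by 3.87 and Col3a1 by 3.56 on the log2 scale. Of the enzymes that make chondroitin and dermatan sulfate, 3 of 22 could be tested and 2 were higher, Chpf (2.13 ± 0.33, adjusted p = 0.00561), which extends the chain, and B3gat3 (0.67 ± 0.21, adjusted p = 0.0340), which completes its linker. Of 10 keratan sulfate enzymes 2 could be tested, of which B4galt1 rose by 1.18 and St3gal3 fell by 0.78. Of 16 proteases and their helpers 5 could be tested. Of these 5, Bmp1 (2.73), the procollagen proteinase that also trims biglycan, and its enhancer Pcolce (1.69) were higher.

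Of 16 genes of growth factors and receptors bound by the proteoglycans 5 could be tested, and all 5 were higher, beside 23.8% of all genes tested. Among them were Tgfb3 (3.14), Cd14 (2.94), a co-receptor of Toll-like receptors, and Ccn2 (2.07), a matrix growth factor. Of 10 large chondroitin sulfate proteoglycans and hyaluronan partners 2 could be tested, Cd44 (4.13) and Vcan (3.22), and both were higher. Of 11 heparan sulfate proteoglycans 7 could be tested. Of these 7, 6 were higher, with Sdc1 (3.47), Col18a1 (2.89) and Sdc3 (1.80) ahead, and Gpc1 fell by 1.12. The median log2 fold change was 3.53 for the fibrillar collagens, 2.07 for growth factors and receptors and 1.20 for heparan sulfate proteoglycans, beside 1.11 for the small leucine-rich proteoglycans and 0.06 for all genes tested. Each count and each median covers only the tested genes of its list, so both carry the limit of the UMI minimum.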

How the data were processed

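Visium libraries of 4 heart sections were analysed, 1 section for each of days 1, 4, 7 and 14 after MI, grouped by the labelled day. For the first section a sentence of the study's results names day 2, while its methods name day 1 as the label does. The authors counted the reads with Space Ranger 1.3.0 on mm10 from images aligned by hand, and deposited UMI counts per gene and spot under tissue, without normalization or later filters. Seurat 4.1.1 is named in the submitters' processing notes.

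Spots with over 1% of UMIs from 8 hemoglobin genes were removed and 4 bins were formed as described, with 2736765, 2758599, 1470333 and 2083967 UMIs in the muscle-poor bins. UMIs were summed by section and bin, and 4769 of 32285 genes with at least 1000 UMIs over the 16 sums were kept. edgeR 4.0.16 (limma 3.58.1, R 4.3.3) fitted the 8 sums of muscle-poor and muscle-rich bins with TMM factors, the section as a block, robust quasi-likelihood dispersion and 3 residual degrees of freedom. Benjamini-Hochberg adjustment ran over all genes tested, with 0.05 as the threshold, and standard errors are the size of the log2 fold change over the root of its F value. Sections are the replicates, and they differ in day. For values per Col1a1 UMI, Col1a1 counts took the place of library sizes. Levels carry exact Poisson intervals, ratios exact conditional ones and shares Clopper-Pearson ones, all at 95%. Ratios scaled to Col1a1 and changes of pair ratios carry approximate log-normal intervals. The fits were run on simulated counts with a dispersion close to that of the main fit (0.0738). The fit per Col1a1 UMI had a common dispersion of 0.442, so the simulation does not cover its setting.

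The members and gene lists were chosen with earlier results of these data known. All 7 members are named. From other lists, up to 3 called genes with the largest change are named, and for likeness the 3 genes with the highest r. Epyc, Chad, Omd, Podn, Kera, Optc, Pdgfra and Gsn were named after their values were seen. Alternatives were DESeq2 1.42.0, other scalings, filters, rankings and groupings of spots, and each section left out. Gene positions come from GENCODE vM21 (GRCm38) and promoters from RefSeq.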

Additional observations from a re-analysis of the deposited data

Results flagged for a closer look

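The gradient of 3 genes ran against that of the other days on day 1. The level in the muscle-poor bin over that in the muscle-rich bin was 0.538 for Dcn, 0.418 for Ogn and 0.602 for Prelp on day 1, and above 1 on days 4, 7 and 14. The difference between days was not tested, since each day is 1 mouse. No other result met the rules for a closer look.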

How the results depend on the processing

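The test of muscle-poor bin against muscle-rich bin was repeated under every alternative. Of 120 values for single members, 110 kept their direction and side of the threshold, 8 lost the call, 1 gained it and 1 turned. Leaving out 1 section at a time gave 662 to 1102 genes higher, 452 to 1104 lower and 1 to 4 members higher, and the estimate for Ogn lay between -0.060 (without day 7) and 1.11 (without day 1). A gene minimum of 10 UMIs gave 2711 genes higher and 2102 lower, and total UMIs without TMM 2015 and 655. Bins are paired within a section, which the block of the main test takes up, and it was left out as an alternative. No paired analysis was possible between days because each day has 1 section.

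Per Col1a1 UMI, of 120 values 98 were as before, 21 lost the call and 1 gained it. Leaving out 1 section gave 1 to 10 genes higher, 3604 to 4708 lower and 3 to 6 members lower. Genes higher numbered 13 (12429 lower) at the minimum of 10 UMIs, 12 with all 16 sums, 9 when ranked on the 10 other cardiomyocyte genes, 9 with 2 bins in place of 4 and 8 (3 members lower) with Col3a1. Without the section block edgeR called 0 genes higher, 0 lower and 0 members lower (5, 2266 and 2 at an unadjusted p under 0.05), where DESeq2 with the block called 7, 4665 and 5.

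For the members' folds between days, 156 values were as before, 119 had moved and 5 had turned beyond counting error. Between days, members at least 2-fold higher in the muscle-poorest decile per Col1a1 UMI were 0 (day 4 over day 1, 0.105% of genes), 2 (day 7 over day 4, 9.79%), 3 (day 14 over day 7, 40.5%) and 1 (day 14 over day 1, 0.399%). In CPM, day 14 over day 7, they were 2 higher (7.51%) and 0 lower (9.46%). Folds that crossed 1 there were 2.62 for Dcn, 2.32 for Prelp, 1.65 for Lum and 1.14 for Bgn (day 14 over day 7 in CPM), 0.867 for Bgn (day 7 over day 4 in CPM), 0.518 for Fmod and 0.930 for Aspn (day 4 over day 1) and 0.954 for Dcn, 0.990 for Lum and 0.815 for Prelp (day 14 over day 1), all per Col1a1 UMI. With Col3a1, day 14 over day 7, they were 0.915 for Fmod and 0.979 for Ogn. Without skeletal muscle spots 5 members were higher on day 7 than on day 4 in CPM (2.48% of genes) and 2 per Col1a1 UMI (0.637%). With Col1a2 the counts were 2 (day 7 over day 4, 4.15%) and 2 (day 14 over day 7, 88.4%), and with Col3a1 3 (4.34%) and 2 (74.1%). Without the hemoglobin filter 1 member was higher per Col1a1 UMI on day 14 than on day 1 (0.466%). The cause of these shifts was not tested. Fmod on day 1 and in the muscle-rich bins rests on at most 10 UMIs.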
